A study of Mus musculus with 6 samples.

Results

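The genes described here are the Eph receptors and ephrins, the Slit ligands and Robo receptors, the netrins and netrin-G proteins with the receptors Dcc and neogenin, and the Rgm proteins. Members were matched by symbol in the probe annotation of the array, and 37 of the 18193 genes on the array matched. The matching itself used no measured values, but the families were chosen with earlier results of these data known. They comprise 9 EphA receptors, 4 EphB receptors, 5 ephrin-A ligands, 3 ephrin-B ligands, 3 Slit ligands, 3 Robo receptors, 4 netrins, 2 netrin-G proteins, Dcc with neogenin, and 2 Rgm genes. Ephb2 has no probe set of its own in the annotation and was not analysed here.

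RNA of sorted retinal cells was hybridised to 6 Affymetrix mouse arrays, 2 in each of 3 groups. The Hb9 group holds cells positive for GFP and for the surface protein Thy1 from the Hb9 line. The Drd4 group holds cells positive for GFP and Thy1 from the Drd4 line, and the Thy1 group holds Thy1-positive cells. All mice were C57BL/6 animals at postnatal day 6, the retinas were dissociated with papain, and the 2 samples within a group were drawn from separate litters. The labels do not give the promoter that drives GFP, the number of animals behind an array, or the part of the retina that was used. As background, the Hb9 and Drd4 reporter lines are known for labelling direction-selective ganglion cells with different preferred directions of motion, whereas Thy1 is found on ganglion cells of many kinds and also on some other cells.

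These families steer growing axons. Eph receptors and ephrins signal at cell contacts, and in the retina they lie in gradients that give ganglion cells their positions: EphA receptors and ephrin-A ligands along the nasal to temporal axis, EphB receptors and ephrin-B ligands along the dorsal to ventral axis. Slit proteins repel axons through Robo receptors and keep retinal axons on their path. Netrin 1 attracts retinal axons into the optic nerve head through Dcc, and Rgm proteins bind neogenin.

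Intensities were compared on the log2 scale, on which a difference of 1 is a fold change of 2, and a gene was taken as changed when limma's adjusted p was under 0.05 after Benjamini-Hochberg adjustment over all 18193 genes. Array medians lay between 45.5 and 47.7 intensity units. The correlation across genes was 0.988 to 0.992 between replicate arrays and 0.963 to 0.981 between arrays of different groups, with genes not being independent replicates. On each array, the brightest of 15 Bacillus control probe sets served as a background reference, which lay between 4.75 and 4.94 on the log2 scale, and 78.7% to 83.0% of genes exceeded it. The ganglion cell markers Rbpms, Slc17a6 and Pou4f1 lay far above it on all 6 arrays, Rbpms between 10.35 and 10.63. Of the 37 guidance genes, 29 exceeded it on all 6 arrays and 8 on some. A level is that of its own probe set and is not compared between genes. Fewer cells of a type and less RNA per cell cannot be told apart in these sorted pools.

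**Figure D1:**
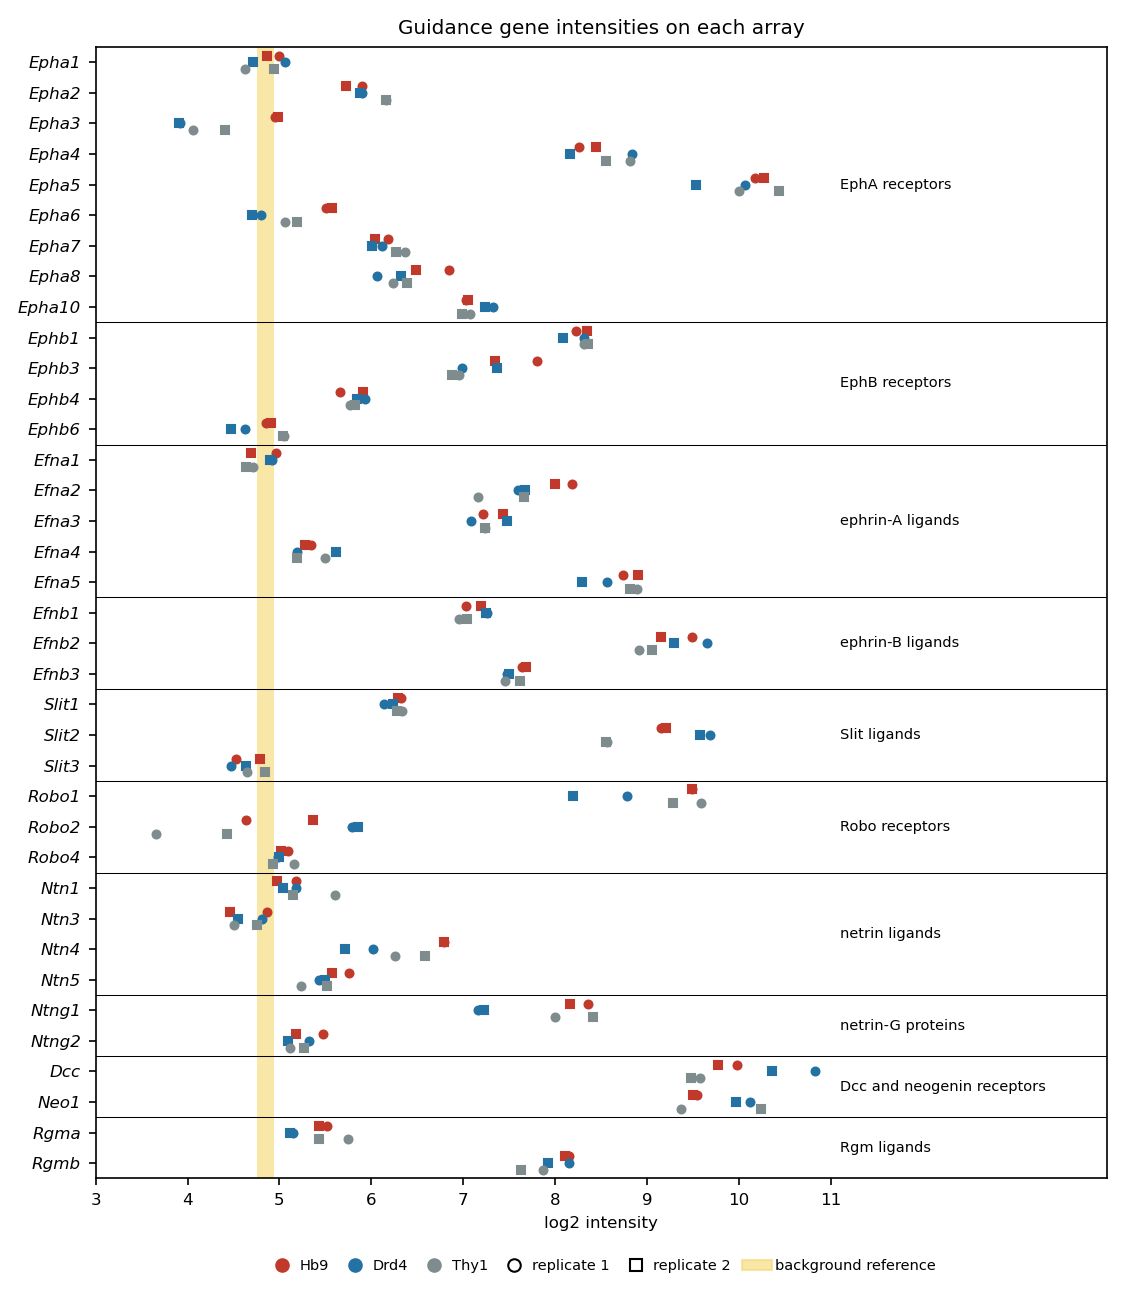
Log2 intensity of the 37 guidance genes on each array, by role, with red points for Hb9, blue for Drd4 and grey for Thy1, circles for replicate 1 and squares for replicate 2. The shaded band is the range of the background reference over the arrays, 4.75 to 4.94, and 29 genes lie above their array's reference on all 6 arrays.

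Among the guidance genes, 2 passed between Hb9 and Thy1 cells, 6 between Drd4 and Thy1 cells and 6 between Hb9 and Drd4 cells. These counts moved with single arrays left out, as given below. Drd4 cells were higher than Thy1 cells in Slit2, Robo2 and Dcc and lower in Robo1, Ntng1 and Ephb6. Hb9 cells were higher than Drd4 cells in Epha3, Epha6, Robo1, Ntn4 and Ntng1 and lower in Dcc. Against Thy1 cells, Hb9 cells were higher in Epha3 and Slit2. In all, 9 of the 37 members (24.3%) passed in at least 1 comparison, against 11.7% of all genes. The 3 comparisons share arrays, both comparisons with Thy1 in particular.

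By count, Hb9 against Thy1 gave 2 members higher and 0 lower, where 6.71% of all genes passed (3.52% higher, 3.19% lower). For Drd4 against Thy1 the count was 3 higher and 3 lower, where 5.47% of all genes passed (1.51% higher, 3.96% lower). For Hb9 against Drd4 it was 5 higher and 1 lower, where 6.12% of all genes passed (4.06% higher, 2.06% lower). At an unadjusted p under 0.05, limma gave 7 members higher and 1 lower for Hb9 against Thy1. Drd4 against Thy1 gave 4 higher and 8 lower, and Hb9 against Drd4 gave 10 higher and 3 lower. The share of all genes at this unadjusted threshold was not computed, so unadjusted counts here and below are descriptions only. The median log2 difference over the members was 0.06 for Hb9 against Thy1, -0.04 for Drd4 against Thy1 and 0.09 for Hb9 against Drd4, close to 0.04, 0.02 and 0.04 over all genes. A difference under 0.50 in size was found for 32, 31 and 29 of the 37 members in the same order of comparisons.

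Counted by arrays that do not overlap, 13 members were higher and 4 lower in Hb9 than in Thy1, against 33.2% and 21.0% of all genes, or 54.2% together. For Drd4 against Thy1, 10 were higher and 12 lower, against 21.8% and 19.3% of all genes, or 41.1% together. For Hb9 against Drd4, 15 were higher and 6 lower, against 30.6% and 19.1%, or 49.7% together. Groups of 2 arrays that do not overlap are therefore common in this table and are given below as descriptions. With single arrays left out, the count of members higher in Hb9 than in Thy1 ranged over 0 to 4. It was 1 without Hb9 replicate 1, 0 without Hb9 replicate 2 or Thy1 replicate 1, and 4 without either Drd4 array. The count lower in Drd4 than in Thy1 was 1 without Drd4 replicate 2 or without either Thy1 array. The count higher in Hb9 than in Drd4 was 2 without Hb9 replicate 1 and 3 without Hb9 replicate 2. The count lower in Hb9 than in Drd4 was 0 without Hb9 replicate 1 or Drd4 replicate 1 and 2 without either Thy1 array.

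**Figure D2:**
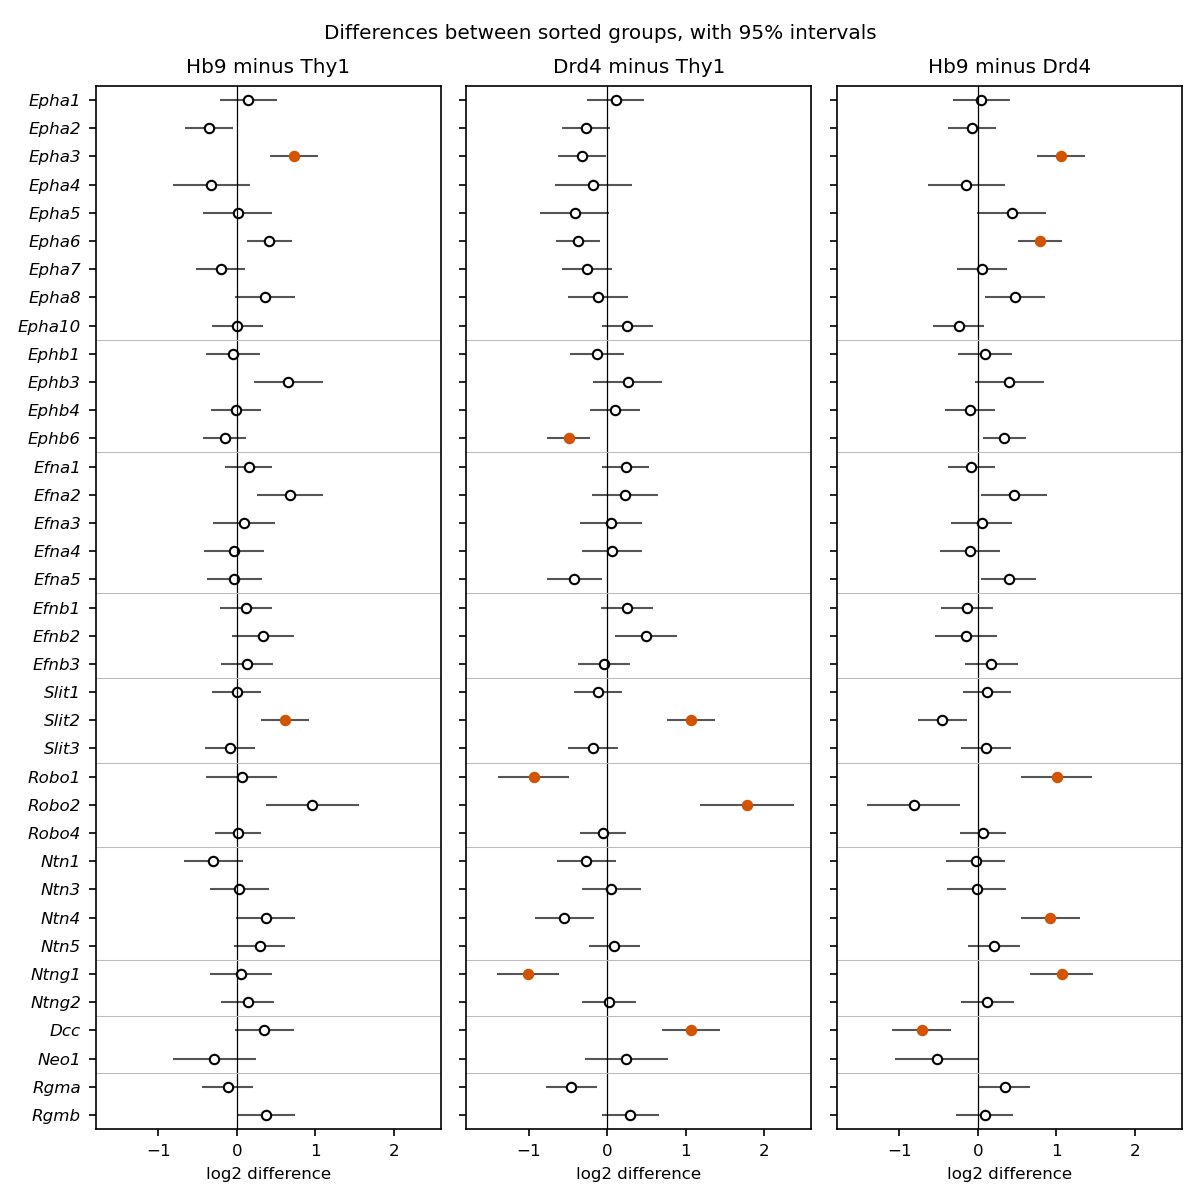
Log2 differences of the 37 guidance genes in the 3 comparisons, with 95% confidence intervals from limma and filled points where the adjusted p was under 0.05. Filled points number 2 for Hb9 against Thy1, 6 for Drd4 against Thy1 and 6 for Hb9 against Drd4, and most other intervals include 0.

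Several of the changed genes have an annotated start in the mouse RefSeq table (build GRCm38.p6), and the 250 bases upstream of it are shown for 4 genes whose levels differed between Hb9 and Drd4 or from Thy1, so that their promoters can be read side by side. Slit2 lies on the plus strand with its window at chr5:47982905-47983154, Robo1 on the plus strand at chr16:72662899-72663148, Ntng1 on the minus strand at chr3:110143473-110143722, and Epha6 on the minus strand at chr16:60605532-60605781. Each is written 5′ to 3′ along its gene, and capitals mark a match to a searched motif.
Slit2: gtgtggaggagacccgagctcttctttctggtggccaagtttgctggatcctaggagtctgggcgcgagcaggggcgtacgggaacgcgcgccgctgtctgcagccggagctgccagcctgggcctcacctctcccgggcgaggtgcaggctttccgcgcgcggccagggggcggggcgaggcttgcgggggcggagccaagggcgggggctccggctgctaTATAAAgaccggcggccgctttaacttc
Robo1: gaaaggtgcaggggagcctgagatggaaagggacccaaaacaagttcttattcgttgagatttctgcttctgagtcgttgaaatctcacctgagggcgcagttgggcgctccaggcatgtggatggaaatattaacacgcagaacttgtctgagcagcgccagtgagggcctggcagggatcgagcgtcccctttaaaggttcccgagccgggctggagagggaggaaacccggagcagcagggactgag
Ntng1: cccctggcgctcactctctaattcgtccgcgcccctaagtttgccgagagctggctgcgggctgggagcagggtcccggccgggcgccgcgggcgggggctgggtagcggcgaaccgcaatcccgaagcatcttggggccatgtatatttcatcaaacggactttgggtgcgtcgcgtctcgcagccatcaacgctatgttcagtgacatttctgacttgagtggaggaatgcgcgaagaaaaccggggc
Epha6: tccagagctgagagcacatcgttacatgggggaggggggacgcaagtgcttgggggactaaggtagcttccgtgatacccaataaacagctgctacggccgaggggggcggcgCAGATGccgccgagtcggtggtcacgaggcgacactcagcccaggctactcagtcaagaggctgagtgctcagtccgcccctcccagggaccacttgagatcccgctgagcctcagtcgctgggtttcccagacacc

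The motifs searched on both strands were TAATTA, the core bound by many homeodomain factors, CAGATG, an E-box, and TATAAA, the TATA box. The Slit2 window is GC-rich at 69.6% and holds 1 TATAAA match. The Epha6 window has 62.8% GC and 1 CAGATG match, and the windows of Robo1 (56.0% GC) and Ntng1 (62.4% GC) hold none of the 3 motifs. Windows were found for 32 of the 37 members, 39 windows in all, of which 2 held TAATTA, 4 CAGATG and 4 TATAAA. Windows of the same gene can overlap, and overlapping windows of Rgmb hold the same TATAAA match, which is counted for each. Among all 32851 promoter windows of the table, the shares were 4.84%, 14.4% and 12.4%. The median GC content was 64.0% over the member windows and 52.4% over all windows. A match is a run of letters and no measurement of binding.

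Among the EphA receptors, which read ephrin-A gradients along the nasal to temporal axis, Epha3 and Epha6 differed between the lines. Log2 intensity of Epha6 was 5.51 and 5.57 in Hb9, 4.80 and 4.70 in Drd4, and 5.06 and 5.19 in Thy1. No group overlaps another: Hb9 is high, Drd4 low and Thy1 between them. Hb9 exceeded Drd4 by 0.79 ± 0.13 (SE), 1.73-fold, with an adjusted p of 0.00560 from limma, and this call was kept in every alternative that was run. With 1 of 2 Drd4 arrays above the background reference, the low end is close to the floor of the array. Against Thy1, Hb9 differed by 0.42 (limma adjusted p 0.0840) and Drd4 by -0.38 (limma adjusted p 0.167), and neither passed.

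Epha3 had log2 intensities of 4.95 and 4.99 in Hb9, 3.92 and 3.91 in Drd4, and 4.06 and 4.41 in Thy1. Both Hb9 arrays are above the background reference and above every array of the other groups, whose values all lie at or below the reference. Hb9 was therefore higher than Drd4 by at least 1.14-fold (limma adjusted p 0.00154) and higher than Thy1 by at least 1.10-fold (limma adjusted p 0.0133). With a wider set of Bacillus controls as the reference, every group is at or below it. The call against Drd4 was kept in every alternative. The call against Thy1 did not hold with its 4 probe sets averaged (limma adjusted p 0.139) and without Hb9 replicate 1 (0.0715), Hb9 replicate 2 (0.0670) or Thy1 replicate 1 (0.122).

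The brightest probe set of Epha4, a receptor for ephrins of both classes, read 8.26 and 8.44 in Hb9, 8.84 and 8.16 in Drd4, and 8.81 and 8.55 in Thy1. Drd4 overlaps the other groups, and the interval of the difference of Hb9 from Thy1 ran from -0.81 to 0.16. Other probe sets of Epha4 gave a different picture. Probe set 1439757_s_at read 4.76 and 4.87 in Hb9, 6.51 and 6.37 in Drd4, and 6.45 and 6.44 in Thy1. Hb9 is below the background reference on both arrays, and Drd4 and Thy1 overlap. Tested among all 34945 single probe sets, it was lower in Hb9 by at least 2.93-fold against Thy1 (limma adjusted p 0.000231) and by at least 2.92-fold against Drd4 (limma adjusted p 0.000113). Another one, 1421929_at, read 5.67 and 6.09 in Hb9, 7.22 and 7.38 in Drd4, and 7.49 and 7.55 in Thy1. It was 3.11-fold lower in Hb9 than in Thy1 (limma adjusted p 0.000605) and 2.67-fold lower than in Drd4 (limma adjusted p 0.000884). Both were kept in each further setting run on single probe sets. So 2 of the 5 Epha4 probe sets fell in Hb9 and 3 did not pass, and which transcripts each probe set reads was not tested. Among all single probe sets 7.12% passed for Hb9 against Thy1, 4.43% for Drd4 against Thy1 and 7.21% for Hb9 against Drd4. These probe sets were picked out after their values were seen.

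**Figure D3:**
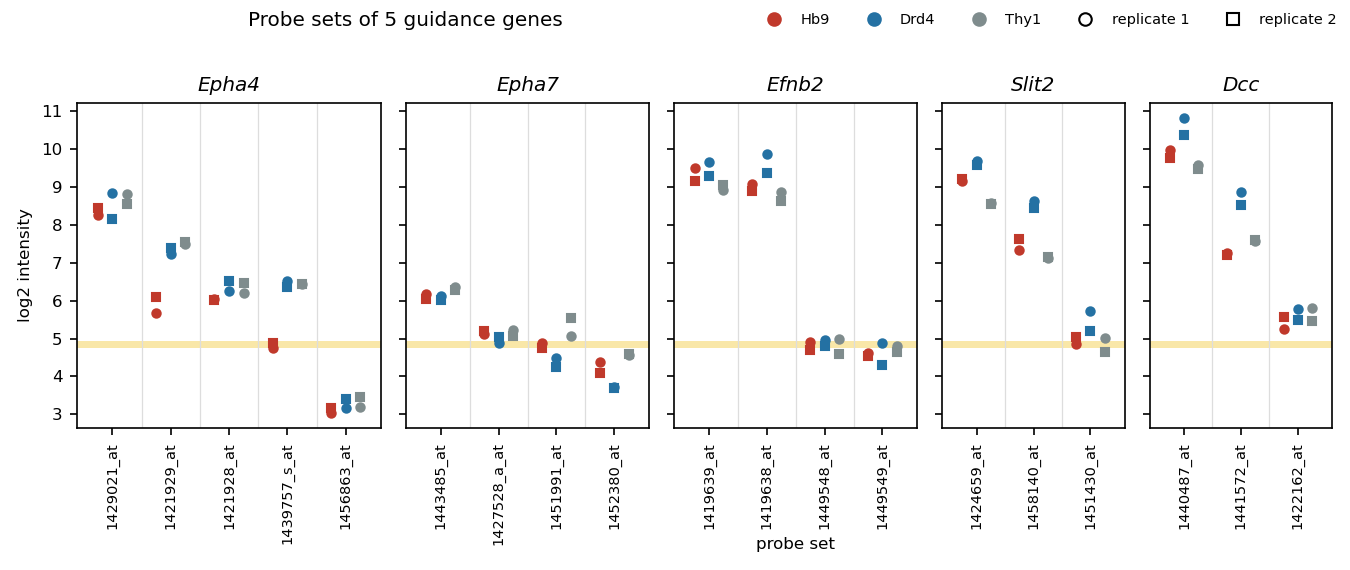
Log2 intensity of each probe set of 5 members on each array, with Hb9 left, Drd4 next and Thy1 right at each probe set and the background reference shaded. Probe sets 1439757_s_at and 1421929_at of Epha4 are low on both Hb9 arrays, while the brightest Epha4 probe set overlaps between groups.

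Epha5, an EphA receptor with a nasal to temporal gradient among ganglion cells, read 10.17 and 10.27 in Hb9, 10.06 and 9.53 in Drd4, and 9.99 and 10.43 in Thy1. The groups overlap except for Hb9, which lies above Drd4. The difference of Hb9 from Thy1 was 0.01, with a 95% interval from -0.43 to 0.45, and that of Hb9 from Drd4 was 0.43, with an interval from -0.02 to 0.87. Epha7 read 6.18 and 6.04 in Hb9, 6.11 and 6.01 in Drd4, and 6.37 and 6.27 in Thy1 on its brightest probe set. Thy1 is slightly above the other groups, and no comparison passed. Of its 4 probe sets, 2 fell in Drd4 relative to Thy1. Probe set 1451991_at, below the background reference on both Drd4 arrays, did so by at least 1.43-fold (limma adjusted p 0.0119, lost without Drd4 replicate 2 at 0.0687 and Thy1 replicate 2 at 0.0954). Probe set 1452380_at lay at or below the background reference on every array, so no fold is given for it.

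Epha8, a receptor expressed in developing midbrain and retina, read 6.84 and 6.49 in Hb9, 6.06 and 6.32 in Drd4, and 6.23 and 6.38 in Thy1. Hb9 is above the others, but the differences of 0.36 from Thy1 and 0.47 from Drd4 did not pass (limma adjusted p 0.249 and 0.154). The remaining EphA members did not pass in any comparison: Epha1, near the background reference, Epha2 and Epha10 differed by at most 0.35 in size. Among the 9 EphA receptors, then, 1 was higher in Hb9 than in Thy1, 0 passed for Drd4 against Thy1, and 2 were higher in Hb9 than in Drd4.

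Of the EphB receptors, which take part in dorsal to ventral mapping, Ephb1 is the receptor known for turning ventrotemporal axons to the same side at the optic chiasm. Log2 intensity of Ephb1 was 8.22 and 8.35 in Hb9, 8.32 and 8.08 in Drd4, and 8.31 and 8.35 in Thy1. All 3 groups overlap. The difference of Hb9 from Thy1 was -0.05 (95% interval from -0.40 to 0.30), that of Drd4 from Thy1 -0.13 (from -0.48 to 0.21) and that of Hb9 from Drd4 0.09 (from -0.26 to 0.43). These intervals do not include a change of 2-fold.

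Ephb3 read 7.80 and 7.35 in Hb9, 6.98 and 7.37 in Drd4, and 6.96 and 6.88 in Thy1. Hb9 lies above Thy1 and overlaps with Drd4. The difference of 0.65 from Thy1 missed the threshold (limma adjusted p 0.0795) and passed when only the compared groups were fitted (0.0490) or without Drd4 replicate 1 (0.0492) or 2 (0.0487). Ephb6, an Eph receptor that lacks kinase activity, read 4.86 and 4.91 in Hb9, 4.62 and 4.47 in Drd4, and 5.04 and 5.03 in Thy1. Drd4 is low, with both arrays at or below the background reference. It was at least 1.19-fold lower in Drd4 than in Thy1 (limma adjusted p 0.0479), a call lost in 15 of 17 alternatives, among them each array left out, where the adjusted p ranged over 0.0621 to 0.226. With the wider set of Bacillus controls as the reference, Ephb6 is at or below it in every group, so that reference gives no bound. Ephb4, known from blood vessels, differed by at most 0.11 in size between groups, and no comparison passed.

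Ephrin-A ligands gave no passing difference, 0 of 5 in each comparison by limma. Efna2, a ligand of the nasal to temporal system, read 8.18 and 7.99 in Hb9, 7.59 and 7.67 in Drd4, and 7.16 and 7.66 in Thy1. On the other of its 2 probe sets, Hb9 differed by -0.09 from Thy1 and by -0.18 from Drd4, and neither passed. On the brightest, given here, Hb9 is above all other arrays. The difference of 0.68 ± 0.19 from Thy1 had a limma adjusted p of 0.0625 and passed without Thy1 replicate 2 (0.0255). Efna5, a ligand graded in retina and midbrain targets, read 8.74 and 8.90 in Hb9, 8.57 and 8.29 in Drd4, and 8.89 and 8.81 in Thy1. Drd4 lies below the other groups, which overlap. Its difference of -0.42 from Thy1, with an interval from -0.78 to -0.07, did not pass after adjustment (limma adjusted p 0.226). On the other of the 2 Efna5 probe sets the direction was reversed, with Drd4 above Thy1 by 0.27, and this did not pass either. Efna3 read 7.22 and 7.43 in Hb9, 7.08 and 7.47 in Drd4, and 7.24 and 7.23 in Thy1, so the groups overlap. Efna1 and Efna4 were dim and differed by at most 0.23 in size. At an unadjusted p under 0.05, limma gave 1 higher for Hb9 against Thy1, 1 lower for Drd4 against Thy1 and 2 higher for Hb9 against Drd4.

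Ephrin-B ligands also gave 0 of 3 in each comparison by limma, with 1 higher in Drd4 than in Thy1 at an unadjusted p under 0.05. Efnb2, the ligand that stops Ephb1-bearing axons at the chiasm and also marks dorsal retina, read 9.49 and 9.15 in Hb9, 9.65 and 9.29 in Drd4, and 8.91 and 9.06 in Thy1. Hb9 and Drd4 overlap, and both lie above Thy1. Its difference of 0.49 between Drd4 and Thy1, with an interval from 0.09 to 0.88, did not pass (limma adjusted p 0.205). A further probe set of Efnb2, 1419638_at, read 9.08 and 8.89 in Hb9, 9.86 and 9.38 in Drd4, and 8.86 and 8.64 in Thy1. Drd4 is highest on it. Among single probe sets it was higher in Drd4 than in Thy1 by 0.87 (limma adjusted p 0.0237), a call lost without Thy1 replicate 1 (0.0525), Thy1 replicate 2 (0.149) or Drd4 replicate 1 (0.157). Efnb1 read 7.03 and 7.20 in Hb9, 7.25 and 7.24 in Drd4, and 6.96 and 7.03 in Thy1. Drd4 is the highest by a margin of at most 0.25 in the means. On its probe set 1418285_at Hb9 was lower than Drd4 by 0.71 (limma adjusted p 0.0140), lost without Hb9 replicate 1 (0.0902), Hb9 replicate 2 (0.0923) or Drd4 replicate 2 (0.0609). Efnb3 read 7.64 and 7.68 in Hb9, 7.48 and 7.49 in Drd4, and 7.45 and 7.61 in Thy1. The Hb9 arrays lie above the others by a small margin, and no comparison passed.

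Slit2, a repellent that ganglion cells themselves make, was higher in both lines than in Thy1 cells. It read 9.15 and 9.20 in Hb9, 9.68 and 9.57 in Drd4, and 8.57 and 8.55 in Thy1. The 3 groups are fully apart, with Drd4 at the top and Thy1 at the bottom. Drd4 exceeded Thy1 by 1.07 ± 0.14, 2.10-fold (limma adjusted p 0.00131), in every alternative run. Hb9 exceeded Thy1 by 0.61 ± 0.14, 1.53-fold (limma adjusted p 0.0288). This call was lost under quantile normalisation (0.0531), with the mean of the 3 probe sets (0.167), with the replicate number as a block (0.0518), and without Hb9 replicate 1 (0.166), Hb9 replicate 2 (0.157), Thy1 replicate 1 (0.123) or Thy1 replicate 2 (0.0621). The difference of Hb9 from Drd4 was -0.45 and missed the threshold (limma adjusted p 0.0919). It passed with the mean of the probe sets, at -0.67 (0.0285). Probe set 1458140_at of Slit2 read 7.34 and 7.61 in Hb9, 8.62 and 8.43 in Drd4, and 7.13 and 7.16 in Thy1. On it Drd4 stands above both other groups, by 1.38 ± 0.16 against Thy1 (limma adjusted p 0.000768), and Hb9 was lower than Drd4 by 1.05 (limma adjusted p 0.00340). Of the 3 probe sets, 1 passed for Hb9 against Thy1, 2 for Drd4 against Thy1 and 1 for Hb9 against Drd4.

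Slit1, the other main retinal repellent, read 6.32 and 6.29 in Hb9, 6.14 and 6.24 in Drd4, and 6.33 and 6.28 in Thy1. The values are nearly level, and the 95% interval of the difference of Hb9 from Thy1 ran from -0.31 to 0.30. Slit3 exceeded the background reference on 1 of the 6 arrays and is the only member that failed the filter on dim genes.

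Of the 3 Robo receptors, Robo1 was lower and Robo2 higher in Drd4 cells than in Thy1 cells, and Robo4 did not pass. Robo1 read 9.49 and 9.49 in Hb9, 8.78 and 8.19 in Drd4, and 9.58 and 9.28 in Thy1. Drd4 is low on both arrays, replicate 2 more so, and Hb9 lies within the range of Thy1. Drd4 was lower than Thy1 by 0.94 ± 0.20, 1.92-fold (limma adjusted p 0.0217). That call was lost with the mean of the 3 probe sets (0.356) and without Drd4 replicate 2 (0.123) or Thy1 replicate 1 (0.148). Hb9 was higher than Drd4 by 1.0 ± 0.20, 2.00-fold (limma adjusted p 0.0171), lost with the mean of the probe sets (0.102) and without Hb9 replicate 1 (0.106), Hb9 replicate 2 (0.0852) or Drd4 replicate 2 (0.0620). Of the 3 Robo1 probe sets, the brightest passed and the others did not.

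Robo2, the main Slit receptor of retinal ganglion cells, read 4.64 and 5.37 in Hb9, 5.79 and 5.86 in Drd4, and 3.66 and 4.43 in Thy1. Drd4 is the highest and the groups do not overlap. Both Thy1 arrays lie below the background reference, as does Hb9 replicate 1. Robo2 was at least 1.98-fold higher in Drd4 than in Thy1 (limma adjusted p 0.00297), at least 1.61-fold with the wider set of Bacillus controls, and the call was kept in every alternative. The difference of Hb9 from Thy1, 0.96 ± 0.27, lies partly below the background reference, so its size is no measured fold. This difference missed the threshold (limma adjusted p 0.0609). It passed with the replicate block (0.0138), with only the compared groups (0.0332), and without Hb9 replicate 1 (0.0386), Thy1 replicate 2 (0.0222), Drd4 replicate 1 (0.0346) or Drd4 replicate 2 (0.0348). The difference of Hb9 from Drd4, -0.82 ± 0.27 (limma adjusted p 0.113), passed with the replicate block (0.0267) and without Hb9 replicate 2 (0.0433). Robo4, known from blood vessels, read 4.93 to 5.16 on the 6 arrays, and no comparison passed.

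**Figure D4:**
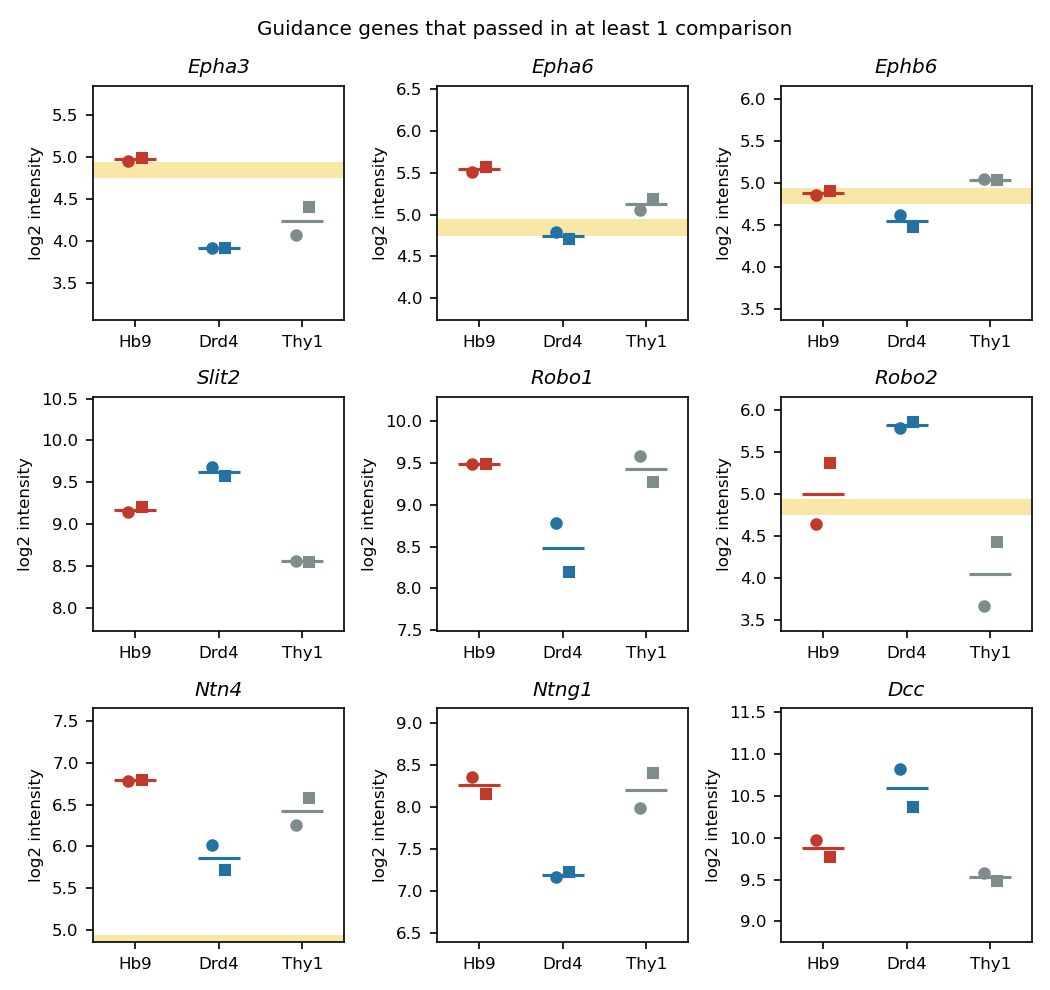
Log2 intensity of the 9 members that passed in at least 1 comparison, per array, with Hb9 left, Drd4 next and Thy1 right, circles for replicate 1, squares for replicate 2, the group mean as a line and the background reference shaded; each panel has its own scale. Slit2, Robo2 and Dcc are highest in Drd4, and Robo1, Ntn4 and Ntng1 are lowest there.

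Ntng1, a membrane-anchored relative of the netrins that acts at synapses, was lower in Drd4 cells than in both other groups. It read 8.36 and 8.16 in Hb9, 7.16 and 7.23 in Drd4, and 8.0 and 8.41 in Thy1. Hb9 and Thy1 overlap, and Drd4 lies well below them. The fall against Thy1 was 1.01 ± 0.18, 2.01-fold (limma adjusted p 0.00735), and was lost with the mean of the 4 probe sets (0.0543) and without Thy1 replicate 2 (0.0522). Hb9 was higher than Drd4 by 1.07 ± 0.18, 2.09-fold (limma adjusted p 0.00663), lost with the mean of the probe sets (0.0695) and without Hb9 replicate 1 (0.0724). Of the 4 probe sets, the brightest passed. Its relative Ntng2 differed by at most 0.14 in size, and no comparison passed.

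Among the secreted netrins, Ntn4, a netrin found in basement membranes, read 6.79 and 6.79 in Hb9, 6.02 and 5.72 in Drd4, and 6.26 and 6.58 in Thy1. Hb9 is the highest and Drd4 the lowest, without overlap. Hb9 exceeded Drd4 by 0.92 ± 0.17, 1.90-fold (limma adjusted p 0.0107). The call was lost with the mean of both probe sets (0.107) and without Hb9 replicate 1 (0.0709) or Hb9 replicate 2 (0.0606). Drd4 against Thy1, at -0.55, did not pass (limma adjusted p 0.114). Ntn1, the netrin of the optic nerve head, was close to the background reference, at 5.17 and 4.98 in Hb9, 5.18 and 5.03 in Drd4, and 5.60 and 5.15 in Thy1. The groups overlap, and no comparison passed for it, Ntn3 or Ntn5.

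Dcc, the netrin receptor of retinal axons, was highest in Drd4 cells. It read 9.97 and 9.77 in Hb9, 10.82 and 10.36 in Drd4, and 9.57 and 9.48 in Thy1. The groups do not overlap. Drd4 exceeded Thy1 by 1.07 ± 0.17, 2.09-fold (limma adjusted p 0.00392), in every alternative run. Hb9 was lower than Drd4 by 0.72 ± 0.17, 1.64-fold (limma adjusted p 0.0340), lost without Hb9 replicate 1 (0.108), Hb9 replicate 2 (0.199) or Drd4 replicate 1 (0.225). Another probe set of Dcc, 1441572_at, read 7.27 and 7.19 in Hb9, 8.85 and 8.52 in Drd4, and 7.58 and 7.61 in Thy1. Drd4 is again the highest, while Hb9 lies below Thy1 here. On it Drd4 exceeded Thy1 by 1.09 ± 0.16 (limma adjusted p 0.00325), and Hb9 was lower than Drd4 by 1.46 ± 0.16 (limma adjusted p 0.000496). The remaining probe set of Dcc, 1422162_at, differed by 0.01 between Drd4 and Thy1 and by -0.23 between Hb9 and Drd4 and passed in neither, so 2 of the 3 probe sets passed in each.

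Neo1, which encodes neogenin, the Rgm receptor, read 9.54 and 9.49 in Hb9, 10.12 and 9.97 in Drd4, and 9.36 and 10.24 in Thy1. Hb9 lies below Drd4, and the Thy1 arrays are far apart and span both groups. The difference of Hb9 from Drd4 was -0.53 (limma adjusted p 0.255) and passed when only the compared groups were fitted (0.0455) or without Thy1 replicate 1 (0.0443) or 2 (0.0482). The direction against Thy1 turned with 1 array: without Thy1 replicate 2 Hb9 was higher by 0.15, and without Thy1 replicate 1 the difference of Drd4 was -0.20.

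Rgma, a repulsive ligand of neogenin, read 5.52 and 5.43 in Hb9, 5.15 and 5.11 in Drd4, and 5.75 and 5.43 in Thy1. Drd4 is the lowest without overlap, yet its difference of -0.46 from Thy1 did not pass (limma adjusted p 0.133). Rgmb, a co-receptor for bone morphogenetic proteins, read 8.15 and 8.10 in Hb9, 8.15 and 7.93 in Drd4, and 7.87 and 7.62 in Thy1. Both lines are above Thy1, by 0.38 in Hb9 (limma adjusted p 0.201) and 0.29 in Drd4 (limma adjusted p 0.501).

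Genes that act with the members were read from further lists. Of 33 measured genes of Eph and ephrin signalling outside the family, 24.2% passed for Hb9 against Thy1. For Drd4 against Thy1 9.09% passed, and for Hb9 against Drd4 18.2%. Over all genes these shares were 6.71%, 5.47% and 6.12%. By direction, 5 of the 33 were higher and 3 lower in Hb9 than in Thy1, and 0 and 3 in Drd4 than in Thy1. Between Hb9 and Drd4, 4 were higher and 2 lower in Hb9. The medians were 0.13, 0.06 and 0.10. The first count fell to 1 and 0 without Hb9 replicate 1, Hb9 replicate 2 or Thy1 replicate 1. Of the last, the 4 higher became 2 without Hb9 replicate 1, and the 2 lower became 0 without either Hb9 array or Drd4 replicate 1. Vav3, a guanine nucleotide exchange factor downstream of Eph receptors, read 7.87 and 7.73 in Hb9, 5.40 and 5.69 in Drd4, and 6.86 and 7.12 in Thy1. The groups are apart, with Drd4 lowest: it was 2.73-fold lower than Thy1, and Hb9 was 4.78-fold higher than Drd4, both kept with each array left out. Hb9 exceeded Thy1 in Vav3 by 0.81 (limma adjusted p 0.0212, lost without Hb9 replicate 1 at 0.152, Hb9 replicate 2 at 0.0698 and Thy1 replicate 1 at 0.163). Chn2, a Rac-inactivating chimaerin, read 6.82 and 6.65 in Hb9, 5.11 and 5.57 in Drd4, and 7.30 and 7.39 in Thy1. Drd4 was again the lowest, 4.01-fold below Thy1, and Hb9 was 2.63-fold above Drd4. Hb9 also exceeded Drd4 in the exchange factor Ngef, by 0.86 (limma adjusted p 0.00845, without Hb9 replicate 1 0.0922). The Eph-dephosphorylating phosphatase Ptpro was higher in Hb9 than in Thy1 by 0.90 (limma adjusted p 0.00665, without Hb9 replicate 1 0.0838). The exchange factor Vav2 was lower in Hb9 than in Drd4 by 0.82, with a limma adjusted p of up to 0.132 with 1 array left out. The scaffold Sdcbp was lower in Drd4 than in Thy1 by 0.60, with an adjusted p of up to 0.161 with 1 array left out. Sipa1l1 and Itsn1 were higher in Hb9 than in Thy1 by 0.82 and 0.78, with adjusted p-values of up to 0.245 and 0.151 with 1 array left out. With the probe sets of a gene averaged, Sipa1l1 differed by 0.31 (limma adjusted p 0.175) and Itsn1 by -0.01 (limma adjusted p 0.972). Of the 9 probe sets of Itsn1, 1 was higher and 1 lower. Averaging also took Vav2 (limma adjusted p 0.0820), Sdcbp (0.0817) and Vav3 in Hb9 against Thy1 (0.0767) out of the calls.

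Over all genes, 6.71% passed for Hb9 against Thy1, 5.47% for Drd4 against Thy1 and 6.12% for Hb9 against Drd4. Of 20 measured Slit and Robo signalling genes, 0 passed for Hb9 against Thy1 (limma, 2 higher and 1 lower at an unadjusted p under 0.05). In this list 1 was higher in Drd4 than in Thy1 (5.0%) and 1 lower in Hb9 than in Drd4 (5.0%). That gene was Flrt3, whose product binds Robo1 and Unc5 receptors. It read 7.08 and 7.21 in Hb9, 9.48 and 9.16 in Drd4, and 7.58 and 7.43 in Thy1. Drd4 stood 3.51-fold above Thy1, and Hb9 4.52-fold below Drd4. Of 29 netrin, Rgm, Dcc and neogenin signalling genes, none was higher in any of these comparisons. Against Thy1, 4 were lower in Hb9 (13.8%) and 3 in Drd4 (10.3%), and 1 was lower in Hb9 than in Drd4 (3.45%). Without Drd4 replicate 2 or either Thy1 array the count for Drd4 against Thy1 was 1. The call between Hb9 and Drd4, Adam17 at -0.68 (limma adjusted p 0.0494), was lost in 12 alternatives, among them each of the 6 arrays left out, and without either Thy1 array 1 gene of the list was higher. Unc5d, a repulsive netrin and Flrt receptor, read 5.88 and 6.08 in Hb9, 5.68 and 5.53 in Drd4, and 7.55 and 7.47 in Thy1. It was low in both lines, by 1.53 in Hb9 (limma adjusted p 0.000710) and by 1.90 in Drd4, against the same Thy1 arrays. Dock1, a Rac activator, fell by 1.64 in Hb9 (limma adjusted p 0.00586) and by 1.09 in Drd4 (limma adjusted p 0.0333, lost without Drd4 replicate 2 at 0.154, Thy1 replicate 1 at 0.188 and Thy1 replicate 2 at 0.0844). With the probe sets of a gene averaged, the call of Dock1 in Drd4 was lost (limma adjusted p 0.113), as was that of Adam10 in Hb9, given below (0.126). Adam17, a protease that sheds receptors, fell by 1.26 in Hb9 (limma adjusted p 0.00344). Its relative Adam10 fell by 0.54 in Hb9 (limma adjusted p 0.0241, up to 0.190 with 1 array left out). The netrin receptor Unc5b fell by 0.64 in Drd4 (limma adjusted p 0.0458, up to 0.248 with 1 array left out).

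Genes known to set or follow position in the retina were listed apart, and 23 were measured. Against Thy1, 1 was higher and 0 lower in Hb9 and 0 higher and 4 lower in Drd4, and 4 were higher and 0 lower in Hb9 than in Drd4. These are 4.35%, 17.4% and 17.4% of the list, against 6.71%, 5.47% and 6.12% of all genes. The medians were -0.06, -0.08 and 0.11. Zic2, the transcription factor of ventrotemporal cells that is known to act upstream of Ephb1, read 8.45 and 8.08 in Hb9, 4.75 and 4.43 in Drd4, and 5.58 and 6.02 in Thy1. Hb9 is far above the rest and both Drd4 arrays are below the background reference. Zic2 was 5.53-fold higher in Hb9 than in Thy1 (limma adjusted p 0.000323), at least 2.02-fold lower in Drd4 than in Thy1, and Hb9 exceeded Drd4 by at least 11.2-fold. Beside it, the levels of Ephb1 given above overlap between all groups.

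Nr2f2, a nuclear receptor graded along the dorsal to ventral axis of the developing eye, read 8.16 and 7.47 in Hb9, 5.72 and 6.08 in Drd4, and 7.83 and 7.91 in Thy1. Drd4 lay 3.91-fold below Thy1, and 4 of its 6 probe sets fell. Cdh4, which encodes R-cadherin, read 8.37 and 8.44 in Hb9, 7.37 and 7.35 in Drd4, and 8.58 and 8.78 in Thy1. Drd4 was 2.5-fold below Thy1 and is the lowest on every array. Isl2, a factor of crossing ganglion cells, was higher in Hb9 than in Drd4 by 0.73 (limma adjusted p 0.0203, lost without Hb9 replicate 1 at 0.189, Hb9 replicate 2 at 0.0582 and Drd4 replicate 1 at 0.101). Of the classical position factors, Vax2 (ventral), Tbx5 (dorsal) and Hmx1 (nasal) did not pass in any comparison. Tbx3 (dorsal) was lower in Drd4 than in Thy1 by 0.66 (limma adjusted p 0.0326), with 0.0682 to 0.163 when any array of these groups was left out. With its 5 probe sets averaged, Tbx3 did not pass there (limma adjusted p 0.129). Foxd1 (temporal) was below the background reference on every array.

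**Figure D5:**
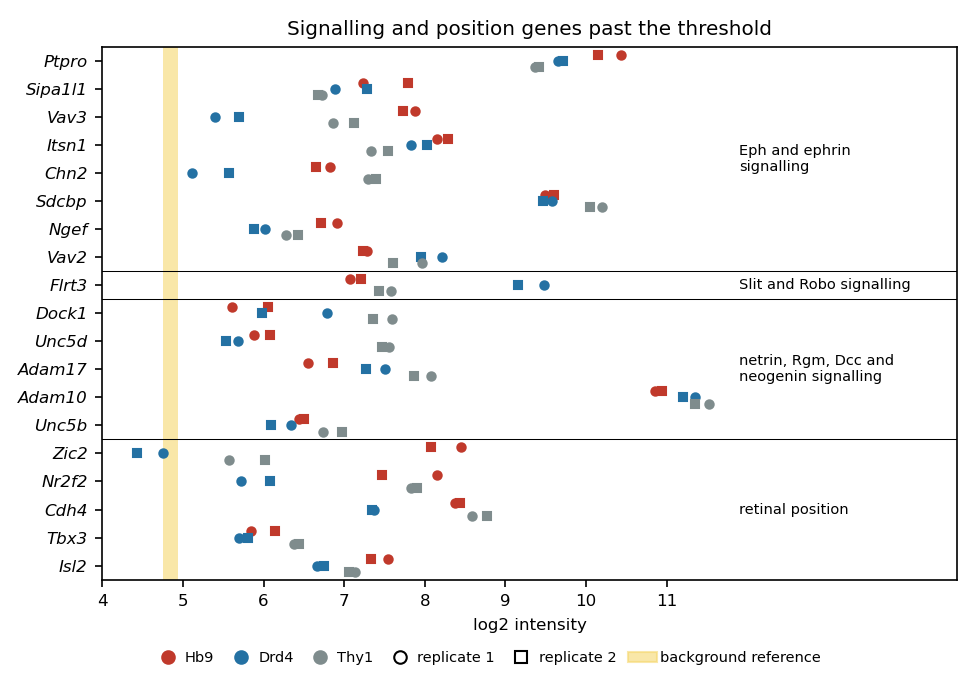
Log2 intensity on each array of signalling and retinal position genes that passed in at least 1 comparison. Shown are those with the largest differences per list and comparison, so some passing genes are left out. Points are red for Hb9, blue for Drd4 and grey for Thy1, and the background reference is shaded. Vav3, Chn2, Zic2, Nr2f2 and Cdh4 are lowest on the Drd4 arrays, and Flrt3 is highest there.

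Markers of other cells moved with the comparisons against Thy1, in which 6.71% of all genes passed for Hb9 and 5.47% for Drd4. Of 14 microglial genes, 12 were lower in Hb9 and 12 in Drd4 than in Thy1, with medians of -2.27 and -2.18, and counts of 6 to 13 and 8 to 13 with single arrays left out, the lowest without Thy1 replicate 1; without Hb9 replicate 1 the count for Hb9 was 7. Their summed intensity was 1802 and 2279 in Hb9, 3269 and 1159 in Drd4, and 12454 and 7249 in Thy1. Of 14 endothelial and pericyte genes, 6 were lower in Hb9 (3 to 8 with single arrays left out, lowest without Thy1 replicate 1) and 7 in Drd4 (6 to 7), and their sums were 2219 and 1812 in Hb9, 1399 and 507 in Drd4, and 8284 and 9387 in Thy1. The endothelial markers Cldn5 and Pecam1 lay at or below the background reference on every array. Of 16 genes of dividing cells, 5 were lower in Hb9 (2 to 7, with 2 without Hb9 replicate 2 and 3 without Hb9 replicate 1 or Thy1 replicate 2) and 7 in Drd4 (5 to 9), with sums of 1304 and 1370 in Hb9, 1259 and 1075 in Drd4, and 1879 and 2797 in Thy1. Of 6 horizontal cell genes, 1 was lower in Hb9 and 3 in Drd4 than in Thy1, with medians of -0.20 and -0.71. The count for Drd4 was 3 with each array left out, and that for Hb9 was 2 without either Drd4 array. Of 16 genes of Muller glia and progenitors, 3 were lower in Hb9 (1 without Thy1 replicate 1), and 3 were lower and 1 higher in Drd4. Among them Apoe read 5.96 and 5.67 in Hb9, 6.07 and 4.67 in Drd4, and 8.85 and 7.91 in Thy1, and Vim 8.31 and 8.40 in Hb9, 8.09 and 8.09 in Drd4, and 9.79 and 10.39 in Thy1. The part of these cells in the differences of the guidance genes from Thy1 was not tested.

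Between Hb9 and Drd4, limma called 0 of the 14 microglial genes (0 higher and 1 lower at an unadjusted p under 0.05) and 0 of the 14 endothelial and pericyte genes (3 higher and 0 lower unadjusted). Among all genes, 6.12% passed between Hb9 and Drd4. Without Drd4 replicate 1, 2 microglial and 3 endothelial and pericyte genes were higher in Hb9. Without Drd4 replicate 2, 2 microglial genes were lower in Hb9 and 1 endothelial or pericyte gene higher. Of the other lists, 1 of 16 genes of dividing cells and 1 of 11 amacrine cell genes were higher in Hb9, as were 1 of 8 bipolar and 1 of 6 horizontal cell genes. The bipolar cell gene was Isl1, which is also on the ganglion cell list, so the same gene enters both counts. The count of dividing cell genes was 0 without either Hb9 array or Drd4 replicate 1, and 3 without either Thy1 array. The horizontal cell count was 3 without Drd4 replicate 2 and 2 without either Thy1 array. Of 18 ganglion cell genes, 1 was higher and 2 lower in Hb9 than in Drd4, among them Isl1, which read 11.54 and 11.69 in Hb9, 9.74 and 9.63 in Drd4, and 11.36 and 11.49 in Thy1. Without Drd4 replicate 1, 3 ganglion cell genes were higher in Hb9. Muller glia and progenitor genes numbered 2 higher and 1 lower of 16, and fewer were higher with any single array left out. Of the higher genes, Rlbp1 lay below the background reference on every Hb9 and Drd4 array. Astrocyte genes numbered 0 of 5 by limma (1 higher unadjusted).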

How the data were processed

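The deposited table holds the authors' probe set intensities on a linear scale for 6 arrays. Per the labels' protocols, RNA was isolated with a PicoPure kit and amplified in 2 rounds before biotin labelling. The labels name no software for these values, and the background correction, summarisation and normalisation behind them are unknown. Of 45101 probe sets, 34945 name 1 gene, 932 several, 9160 none, and 64 are controls. By Entrez identifier 34741 matched the RefSeq table, and 0 symbols changed. No floor was needed before log2, since 0 values were at or below 0.

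A gene was represented by its brightest probe set, by mean log2 over the 6 arrays. Group means were fitted to all 6 arrays with limma 3.58.1 in R 4.3.3 and an intensity trend (3 residual and 6.98 prior degrees of freedom). Tests were two-sided, with Benjamini-Hochberg adjustment over 18193 genes. The number of arrays limits the precision: the median standard error was 0.15, and an exact test of 2 arrays against 2 cannot go below a p of 0.333. A group at or below the background reference on all its arrays enters a fold as a bound ("at least"). The bound sets the brighter group's mean against the mean, over the dim group's arrays, of the higher of that reference and the signal.

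The members and lists were chosen with earlier results of these data known. Described array by array were members that passed in any comparison and those known from retinal guidance. From each list, up to 4 passing genes per comparison with the largest differences were eligible for naming, and others are named only as background. Probe sets other than the brightest were picked for their values. Alternative settings were quantile normalisation, median centring, the mean of all probe sets, each probe set on its own, dim genes left out, no trend, robust moderation, array weights, an offset of 16, only the compared groups, the replicate block, and each array left out. The fit was also run on simulated data with independent noise for each gene and array. Such data hold no error shared by the genes of an array, so no conclusion on the real arrays is drawn from them.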

Additional observations from a re-analysis of the deposited data

How the results depend on the processing

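Of the 14 calls made on members, 5 were kept in all 17 alternatives, and 0 were reversed; of 64 results without a call among the members described array by array, 9 passed in some alternative. Members higher in Hb9 than in Thy1 numbered 2, and 1 under quantile normalisation, 0 with the mean of all probe sets, 4 with only the compared groups and 0 to 4 with single arrays left out. Members lower there numbered 0, and 1 with the mean of all probe sets, the result being Epha4 (-0.83, limma adjusted p 0.00720). Members lower in Drd4 than in Thy1 numbered 3, and 1 to 2 with single arrays left out, while those higher stayed at 3. Members higher in Hb9 than in Drd4 numbered 5, and 2 with the mean of all probe sets and 2 to 5 with single arrays left out. Members lower there numbered 1, and 3 with the mean of all probe sets, 2 with only the compared groups and 0 to 2 with single arrays left out. Counting a gene when any of its probe sets passed, an alternative chosen after seeing the data, gave 2 higher and 1 lower for Hb9 against Thy1, 4 and 3 for Drd4 against Thy1, and 6 and 4 for Hb9 against Drd4. Over all genes, testing each probe set on its own gave 2487, 1549 and 2520 calls in place of 1220, 995 and 1113. With single arrays left out, these were 315 to 1633, 666 to 922 and 411 to 1244. Where an array is left out its group has 1 array, which is assumed to vary like the others, and fewer samples enter the fit. Otherwise the cause of a change was not tested. No label says that a replicate number stands for a shared litter, and the correlation of same-numbered deviations was -0.28 for Hb9 with Drd4, -0.19 for Hb9 with Thy1 and 0.37 for Drd4 with Thy1. With the replicate block, the members lower in Hb9 than in Drd4 numbered 2 and those lower in Drd4 than in Thy1 numbered 2, and the calls over all genes were 1156, 985 and 1030. Intensities near the background reference limit Epha3, Epha6, Ephb6 and Robo2. With the wider set of Bacillus controls, Epha6 lies below the reference on both Drd4 arrays, so its fold between Hb9 and Drd4 becomes a bound. The wider set of Bacillus controls was also chosen after seeing the data.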
